A study of Mus musculus with 17 samples.

Results

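Respiratory complex I is the largest enzyme of the mitochondrial electron transport chain. It takes electrons from NADH, passes them through flavin and iron-sulphur clusters to coenzyme Q, and pumps protons across the inner membrane as it does so. Its genes carry the symbol Nduf. Core subunits, some encoded in the nucleus and some in mitochondrial DNA, carry out the catalysis, accessory subunits surround and hold them, and assembly factors (the Ndufaf genes) help to build the enzyme without staying in it. In white adipose tissue, mitochondria support fatty acid synthesis, lipolysis and adipokine secretion, and nuclear complex I genes are known targets of the coactivators of the PGC-1 family.

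The genes described here are all those of the array whose name or current symbol starts with Nduf. Of the 18133 genes tested in the series, 44 carried such a name, and these 44 were all the Nduf genes with a probe. Their probes were well above background in the sample dye on 17 of 17 arrays, and none was saturated on any array. The group held 7 core subunits, 29 accessory subunits, 7 assembly factors (Ndufaf1 to Ndufaf7) and Ndufa4, which is now placed in complex IV. Where a gene had several probes, the brightest stood for it.

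Adult C57BL/6J males gave the samples, which were taken from epididymal white fat, with 1 array for each mouse. One group of mice (HGI, n = 9) ate a high-fat diet with carbohydrate of high glycemic index, and the other (LGI, n = 8) ate a high-fat diet with carbohydrate of low glycemic index. Both diets held 30% of energy as fat and were fed for 13 weeks, so both groups were fat-fed and no low-fat group stands behind the comparison. On each array the RNA of 1 mouse, labelled with Cy5, was hybridized with a Cy3-labelled pool made from every sample, and every level below is a log2 ratio of Cy5 to Cy3. A difference is the HGI mean minus the LGI mean on that log2 scale. The labels call the samples replicates without describing the animals further, and the p-values cover no more than the spread over these 17 arrays.

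A pair of arrays stood apart from the rest. Over all genes tested, the log2 ratios of HGI 9 and HGI 10 correlated at r = 0.81. Their correlations with the remaining 15 arrays ran from -0.049 to 0.14, and those among the 15 from 0.37 to 0.83. The mean log2 ratio of 6 seminal vesicle secretory genes was 1.43 in HGI 9 and 1.45 in HGI 10, against -4.04 to -3.71 on the other 15 arrays. Values below are over all 17 arrays unless stated, and for each class, gene list and Nduf gene with a test beside it the value without these 2 arrays is given too. All 10 adipocyte markers, among them Adipoq, Plin1 and Fabp4, were measured above background, while Ucp1 and Elovl3 of the brown fat list did not pass the filter.

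Nuclear respiratory factor 1 (NRF1) is a transcription factor known to bind GC-rich palindromes in promoters of respiratory chain genes. Promoter sequences of 39 of the 44 genes, from 250 bases before to 50 after the annotated start, were taken from RefSeq (GRCm38.p6). The letters GCGCA and GCGC with any 1 base between them were searched on both strands. A gene counted if any of its promoters held them. They occurred for 9 of these 39 genes (23.1%), against 1402 of all 27025 genes with a promoter sequence (5.19%). Those 27025 genes were not limited to the genes tested here. The motif was found for 7 of 27 accessory genes, 2 of 6 assembly factor genes and 0 of 5 core genes. The shorter ETS motif CCGGAAGT, also searched on both strands, was found for 1 of the 39 (Ndufs3, 2.56%), against 4.31% of the 27025 genes. The 90-base windows below show the same motif, in capitals, near the starts of a pair of accessory genes whose diet differences had opposite signs, and the promoter of the core gene Ndufv1, which does not hold it.
Ndufa11 (chr17:56717672-56717761, plus strand): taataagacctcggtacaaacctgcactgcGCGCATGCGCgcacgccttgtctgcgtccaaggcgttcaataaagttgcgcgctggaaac
Ndufa5 (chr6:24527691-24527780, minus strand): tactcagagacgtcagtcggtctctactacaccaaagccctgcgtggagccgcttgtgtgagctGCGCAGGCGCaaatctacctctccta
Ndufv1 (chr19:4012756-4012845, minus strand): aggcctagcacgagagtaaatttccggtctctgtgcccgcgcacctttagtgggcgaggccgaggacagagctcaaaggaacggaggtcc
A match is a stretch of letters and not a measured binding site. Among the 9 genes with the NRF1 motif, 5 had a difference below 0 and 4 above it, with a median of -0.020 and a range of -0.20 to 0.14. Of the 30 genes in the table without it, 20 had a difference below 0, and their median was -0.022.

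The question put to the complex I genes was whether their transcript levels differed between mice fed the HGI diet and mice fed the LGI diet. Most core subunits averaged lower under HGI: 5 of 7 had a difference below 0, and the median over the 7 was -0.14 on the log2 scale. Without HGI 9 and HGI 10, 5 of 7 were again below 0 and the median was -0.096. The core genes with an unadjusted p under 0.05, all lower in HGI, numbered 4 over 17 arrays and 1 without the 2 arrays. The 29 accessory subunits had a median of -0.023 and the 7 assembly factors one of -0.011, and without the 2 arrays these were -0.030 and -0.016. No gene of any class passed the test. By limma with Benjamini-Hochberg adjustment over all 18133 genes, 0 of the 44 had an adjusted p under 0.05, and the adjusted p of the 44 lay between 0.57 and 1.00. Over the whole array, 0 of 18133 genes (0%) passed, and 1404 (7.74%) had an unadjusted p under 0.05. The values of the 2 diets overlapped for each of the 44 genes, and were apart for 0.0386% of all genes.

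Over the whole group, 30 of 44 genes (68.2%) had a difference below 0 and 14 above it, against 47.4% below 0 among all genes tested. Their median difference was -0.025, against 0.0058 for all genes. At an unadjusted p under 0.05, 6 genes were lower in HGI, against 3.78% of all genes, and 1 was higher, against 3.97%. Without HGI 9 and HGI 10, 28 of 44 were below 0 (49.9% of all genes) and the median was -0.025. At an unadjusted p under 0.05, 1 gene was then lower in HGI (2.75% of all genes) and 1 higher (5.04%), 2 of 44 in either direction, against 7.79% of all genes. The sign was the same with and without these 2 arrays for 36 of the 44 genes. The split depended on the scaling. By the scanner's processed signals, the authors' deposited log2 values and Cy5 alone, 26 to 33 of 44 were below 0. It was 13 of 44 when arrays were centred on their medians in place of loess. The share of all genes below 0 was counted only for the fits with and without HGI 9 and HGI 10. The median difference of all genes ran from -0.0021 to 0.022 over the 34 alternatives described at the end.

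Most complex I genes varied less between mice than the median gene tested. The median SD over the 17 arrays was 0.13 for the 44 genes and 0.17 for all genes tested, and 37 of the 44 lay below that all-gene median. All 44 were well above background on 17 arrays, while a gene needed only 8 arrays to be tested. The comparison with all genes was not matched for brightness. The largest difference of the group in absolute size was 0.20, which 8.44% of all genes exceeded, and 33 of the 44 differences were smaller than 0.1. In bulk tissue such as this, fewer cells of a type and less RNA per cell cannot be told apart.

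**Figure D1:**
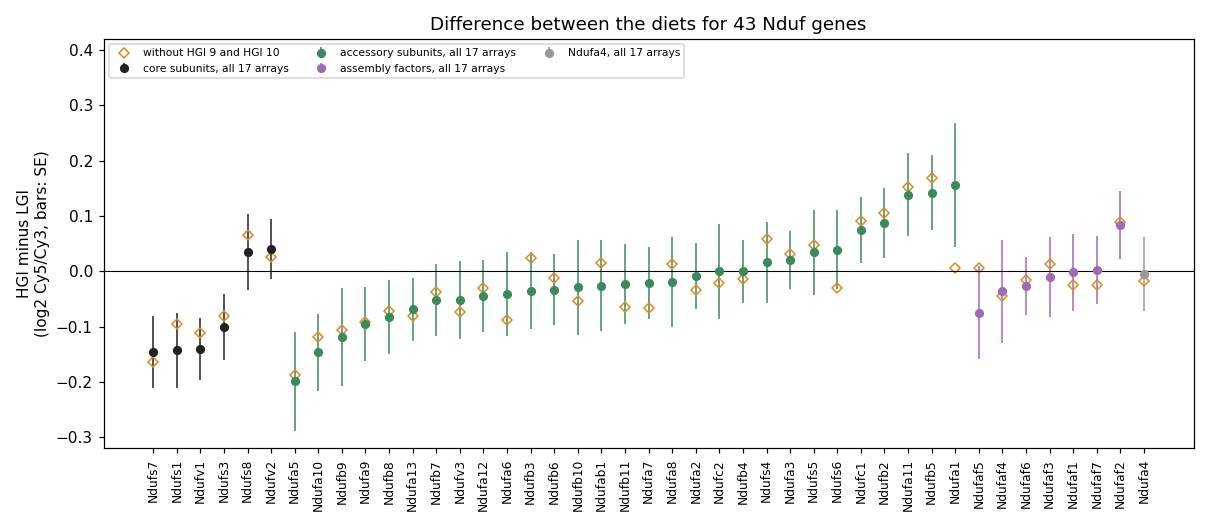
HGI minus LGI difference in log2 Cy5/Cy3 (y axis) for 43 of the 44 Nduf genes (x axis), ordered within core, accessory and assembly classes, with Ndufa4 last. Filled points and bars are the difference and its SE over 17 arrays, and open diamonds the difference without HGI 9 and HGI 10. Of the core subunits drawn, Ndufs7, Ndufs1, Ndufv1 and Ndufs3 lie between -0.15 and -0.10, while the accessory subunits run from -0.20 to 0.16.

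Among the core subunits, Ndufv1 and Ndufv2 form the entry point for electrons at the tip of the peripheral arm, the part of the enzyme that reaches into the matrix. Ndufv1 holds the flavin that accepts electrons from NADH. Its log2 ratio ran from -0.14 to 0.15 with a median of -0.013 in HGI mice, against 0.038 to 0.26 with a median of 0.12 in LGI mice. All 8 LGI values were above 0, and 8 of 9 HGI values were below the LGI median, but the diets overlapped. The difference was -0.14 ± 0.055 (SE), with an adjusted p of 0.57 from limma, and -0.11 without HGI 9 and HGI 10. Ndufv2, its partner with an iron-sulphur cluster, went the other way in value. It ran from -0.14 to 0.16 (median 0.060) in HGI mice, against -0.081 to 0.13 (median -0.015) in LGI mice, and the difference was 0.040 ± 0.054 (adjusted p = 0.87, limma), or 0.026 without the 2 arrays. Its direction was not stable, since it turned negative in the authors' deposited values and with Cy5 alone.

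Ndufs1, the large peripheral subunit that carries the chain of clusters next to the entry point, ran from -0.15 to 0.23 with a median of 0.047 in HGI mice, against 0.023 to 0.44 with a median of 0.20 in LGI mice. HGI 9 and HGI 10 had its lowest values of all 17 arrays (-0.090 and -0.15), and all LGI values were above 0. The difference was -0.14 ± 0.068 (adjusted p = 0.64, limma) and -0.096 without the 2 arrays. Ndufs3, a subunit between the clusters and the membrane, ran from -0.037 to 0.16 (median 0.016) in HGI mice, against -0.056 to 0.30 (median 0.17) in LGI mice. All 9 HGI mice were below the LGI median, yet LGI 7 and LGI 9 were as low as the lowest HGI mice, and the difference of -0.10 ± 0.059 had an adjusted p of 0.72 (limma) and was -0.081 without the 2 arrays.

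Ndufs7, which holds the last cluster before coenzyme Q, ran from -0.099 to 0.094 (median -0.027) in HGI mice, against -0.037 to 0.44 (median 0.060) in LGI mice. Only LGI 2, LGI 4 and LGI 6, at 0.44, 0.29 and 0.21, lay above every HGI mouse. The difference was -0.15 ± 0.066 (adjusted p = 0.63, limma), and -0.16 without HGI 9 and HGI 10.

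Ndufs8, which carries clusters between Ndufs1 and Ndufs7, was the other core gene with a difference above 0, at 0.035 ± 0.069 (adjusted p = 0.92, limma) and 0.066 without HGI 9 and HGI 10. Its mean and median disagreed in direction: the range was -0.14 to 0.30 with a median of -0.030 in HGI mice, against -0.057 to 0.16 with a median of 0.024 in LGI mice. HGI 1, HGI 3 and HGI 5, at 0.29, 0.23 and 0.30, stood above all LGI mice, and the difference was -0.11 among the later 9 arrays scanned. Of the core subunits encoded in mitochondrial DNA, only ND4L was measured. It ran from -0.19 to 0.16 (median -0.043) in HGI mice, against -0.19 to 0.33 (median 0.083) in LGI mice, and its difference was -0.11 ± 0.071 (adjusted p = 0.73, limma), or -0.083 without the 2 arrays.

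**Figure D2:**
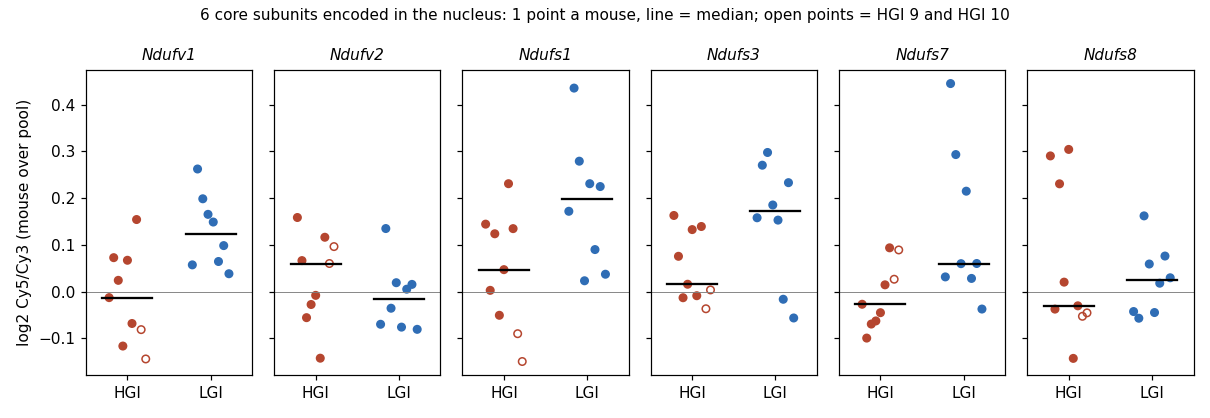
Log2 Cy5/Cy3 (y axis) of 6 nuclear core subunits, 1 panel a gene, with 1 point for each mouse, HGI left of LGI, the median as a line and HGI 9 and HGI 10 as open points. The diets overlap for every gene drawn; for Ndufv1 the medians are -0.013 in HGI and 0.12 in LGI, and for Ndufs3 they are 0.016 in HGI and 0.17 in LGI.

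Averaged over the 7 core genes within each mouse, the log2 ratio was 0.024 ± 0.067 in HGI mice (SD, n = 9), against 0.11 ± 0.092 in LGI mice (SD, n = 8). LGI 2 and LGI 4 were the highest, at 0.25 and 0.22, and LGI 9, at -0.021, was the lowest of its diet. The 9 HGI mice lay between -0.042 and 0.11. For the 29 accessory genes the same average was 0.025 ± 0.038 in HGI mice, against 0.039 ± 0.078 in LGI mice, and LGI 2 and LGI 4 were again the highest, at 0.14 and 0.17. The core average minus the accessory average was -0.0015 ± 0.058 in HGI mice, with 5 of 9 above 0, against 0.074 ± 0.043 in LGI mice, with 8 of 8 above 0. The ranges overlapped, from -0.083 to 0.10 in HGI mice and from 0.014 to 0.13 in LGI mice. HGI 9 and HGI 10, at -0.054 and -0.083, were among the 3 lowest mice, and the HGI mean turned to 0.018 ± 0.050 without them (n = 7), with 5 of 7 above 0. The core average of those 7 HGI mice was 0.040 ± 0.067 and their accessory average 0.022 ± 0.042. These averages are a description and carry no test.

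**Figure D3:**
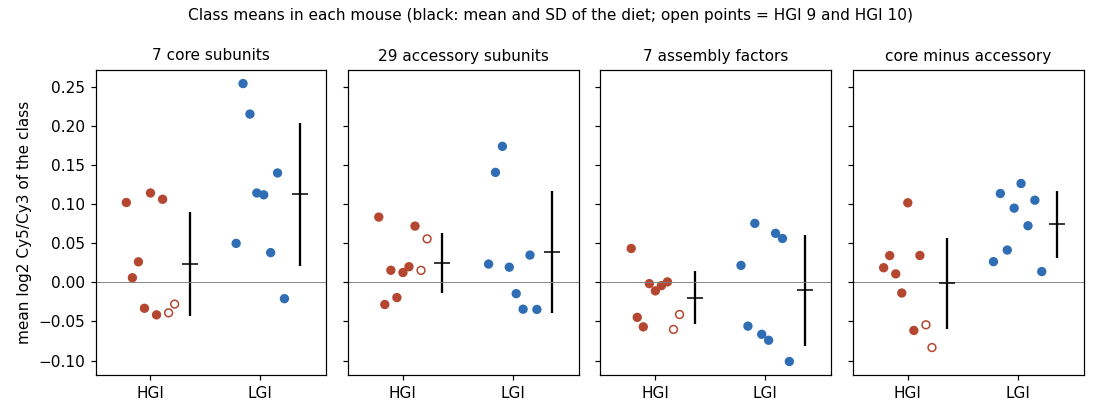
Mean log2 Cy5/Cy3 (y axis) over the core, accessory and assembly genes of each mouse, and the core mean minus the accessory mean, with HGI left of LGI. Points are mice, open points HGI 9 and HGI 10, and black bars the mean and SD of the diet. The core mean is 0.024 in HGI and 0.11 in LGI, and the assembly means are -0.020 in HGI and -0.010 in LGI.

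The accessory subunits spread to both sides of 0. Of the 29, 19 had a difference below 0 and 10 above it. Without HGI 9 and HGI 10 the split was 18 and 11. Within the first 8 arrays scanned 13 of 29 were below 0, and within the later 9 arrays 19 of 29. The class median took opposite signs in these sets, 0.018 for the first 8 arrays and -0.060 for the later 9. The core median was below 0 in both, at -0.075 for the first 8 arrays and -0.14 for the later 9. With median centring in place of loess, 5 of 29 accessory subunits were below 0 and 5 of 7 core subunits were.

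Ndufa5, a subunit of the peripheral arm, had the most negative difference of the 44 genes. It ran from -0.41 to 0.29 with a median of -0.084 in HGI mice, against -0.085 to 0.40 with a median of 0.16 in LGI mice. The ranges overlapped widely, and 7 of 9 HGI mice were below the LGI median. The difference was -0.20 ± 0.089 (adjusted p = 0.62, limma) and -0.19 without HGI 9 and HGI 10. Ndufa10, a membrane arm subunit related to nucleoside kinases, ran from -0.075 to 0.24 (median 0.064) in HGI mice, against -0.0012 to 0.40 (median 0.22) in LGI mice. Its difference was -0.15 ± 0.069 (adjusted p = 0.64, limma) and -0.12 without the 2 arrays, and 7 of 9 HGI mice were below the LGI median. Ndufa9, which sits where the arms of the enzyme meet, had a difference of -0.095 ± 0.067 (adjusted p = 0.76, limma), or -0.092 without the 2 arrays. It ran from 0.077 to 0.42 (median 0.22) in HGI mice, against 0.11 to 0.51 (median 0.34) in LGI mice, and 8 of 9 HGI mice were below the LGI median.

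Of the accessory genes with differences above 0, Ndufb5 and Ndufa11, both of the membrane arm, had the smallest p-values. Ndufb5 ran from -0.064 to 0.42 with a median of 0.058 in HGI mice, against -0.18 to 0.048 with a median of -0.0063 in LGI mice. No LGI mouse reached the HGI median. The difference was 0.14 ± 0.068 (adjusted p = 0.65, limma) and 0.17 without HGI 9 and HGI 10. Ndufa11, whose product lies near the contact with complex III in supercomplexes, ran from -0.27 to 0.29 (median 0.15) in HGI mice, against -0.16 to 0.14 (median -0.062) in LGI mice. Again no LGI mouse reached the HGI median, although the lowest value of all was from an HGI mouse. The difference was 0.14 ± 0.075 (adjusted p = 0.68, limma) and 0.15 without the 2 arrays, and the second Ndufa11 probe gave 0.048.

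Ndufa1, a small membrane arm subunit encoded on the X chromosome, had the largest difference above 0, at 0.16 ± 0.11 (adjusted p = 0.77, limma). That value came from the 2 arrays that stood apart. HGI 9 and HGI 10 had 0.55 and 0.47, while the other 15 arrays lay between -0.42 and 0.079. Without them the difference was 0.0050. The medians of all mice were -0.16 in HGI and -0.15 in LGI. The seminal vesicle genes were high on the same 2 arrays, and their part in the Ndufa1 value was not tested. Over the 44 genes, HGI 9 and HGI 10 also had both highest values for Ndufs6, an accessory subunit near the peripheral tip, at 0.26 and 0.36, against at most 0.20 elsewhere. Over the 44 genes alone the r between these arrays was 0.78, their r with the rest ran from -0.36 to 0.34, and r among the remaining 15 from -0.084 to 0.68 (median 0.36).

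The other 23 accessory subunits had differences between -0.12 for Ndufb9 and 0.087 for Ndufb2, and their adjusted p-values were 0.77 or more by limma. Grouped by position, the 16 subunits of the peripheral arm had 12 differences below 0 and a median of -0.049, and the 19 of the membrane arm had 11 below 0 and a median of -0.020. Without HGI 9 and HGI 10 the peripheral arm had 13 below 0 and a median of -0.077, and the membrane arm 10 below 0 and a median of -0.011. The 7 nuclear core subunits all lie in the peripheral arm. Its 9 accessory subunits had 7 differences below 0 and a median of -0.041, and without HGI 9 and HGI 10 they had 8 below 0 and a median of -0.067. Ndufa2, Ndufa6, Ndufa7, Ndufa12 and Ndufv3 were among these with differences between -0.052 and -0.0083, or -0.088 and -0.031 without the 2 arrays. The accessory genes Ndufs4 and Ndufs6 of the same arm were the only ones of the 9 above 0, at 0.016 and 0.039, and at 0.059 and -0.030 without the 2 arrays. Ndufab1, the mitochondrial acyl carrier protein, lies in both arms and had -0.026 ± 0.082, or 0.015 without the 2 arrays.

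Probes of 1 gene did not always point the same way. Of the 44 genes, 13 had more than 1 tested probe, and in 6 of these all probes gave a difference of the same sign (Ndufa1, Ndufa7, Ndufa8, Ndufa11, Ndufaf4 and Ndufv3). The probes of Ndufc1, a small membrane arm subunit, disagreed most, with differences of -0.11 to 0.075. Those of Ndufb8, another membrane arm subunit, spanned -0.082 to 0.046. No core subunit had a second tested probe, so the core values rest on 1 probe for each gene. Signs were also compared with those of 5 other scalings: median centring, no background correction, processed signals, Cy5 alone and the authors' deposited values. In all 5, 6 of 7 core subunits kept the sign of the reported fit, 5 of them below 0. The count was 12 of 29 for accessory subunits, 5 of them below 0 and 7 above, and 3 of 7 for assembly factors.

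**Figure D4:**
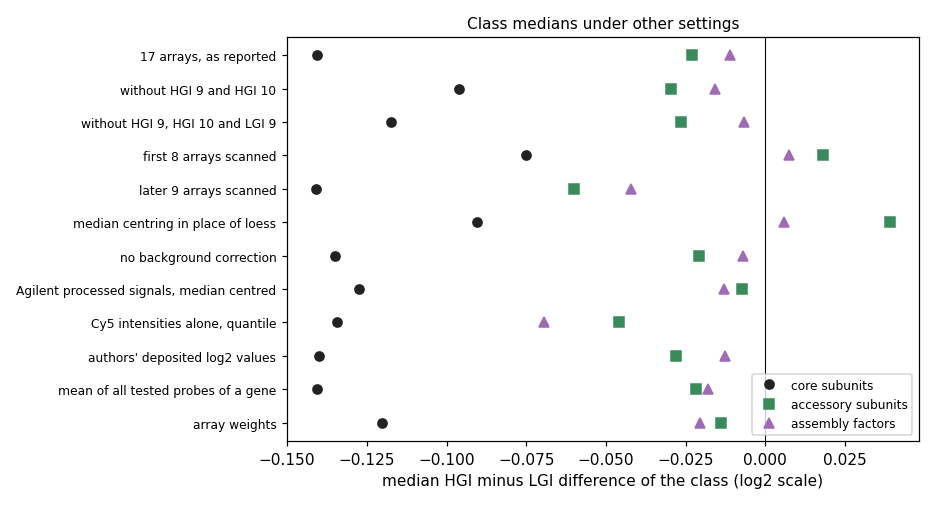
Median HGI minus LGI difference on the log2 scale (x axis) of the core (circles), accessory (squares) and assembly (triangles) genes under the reported setting and 11 others (y axis). The core median is below 0 in each row, from -0.14 to -0.075, while the accessory median reaches 0.018 in the first 8 arrays scanned and 0.039 with median centring.

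The assembly factors lay closest to 0. Of the 7, 5 had a difference below 0 with all arrays and 4 without HGI 9 and HGI 10, and none had an unadjusted p under 0.05. Ndufaf2, a chaperone of late assembly, ran from -0.093 to 0.17 (median 0.066) in HGI mice, against -0.24 to 0.15 (median -0.025) in LGI mice. The difference was 0.083 ± 0.061 (adjusted p = 0.77, limma), and 0.089 without the 2 arrays. Ndufaf5, which in human cells hydroxylates an arginine of the Ndufs7 product, ran from -0.41 to 0.19 (median -0.16) in HGI mice, against -0.16 to 0.17 (median -0.093) in LGI mice. Its difference of -0.075 ± 0.085 (adjusted p = 0.85, limma) rested on HGI 9 and HGI 10, at -0.41 and -0.40, against at least -0.22 elsewhere, and was 0.0063 without them. Ndufaf1, which works with Ecsit and Acad9 on the membrane arm, and Ndufaf7, a methyltransferase, had differences of -0.0022 and 0.0028 (-0.025 and -0.026 without the 2 arrays). Ndufaf3 and Ndufaf4, partners in early assembly, had -0.011 and -0.037 (0.012 and -0.044), and Ndufaf6 had -0.026 (-0.016).

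Ndufa4 was first described as a complex I subunit and is now counted with cytochrome c oxidase. It ran from -0.30 to 0.12 (median -0.022) in HGI mice, against -0.19 to 0.13 (median -0.090) in LGI mice. The difference was -0.0057 ± 0.067 (adjusted p = 0.99, limma), or -0.018 without the 2 arrays, and its sign turned under several settings, median centring among them (0.065).

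Other genes of the pathway were set beside these. Of 10 further complex I assembly factors measured of 11 listed, 6 had a difference below 0 and none passed, with -0.14 for Tmem186 and 0.074 for Dmac1. Their median was -0.027, and without HGI 9 and HGI 10 it was -0.0030 with 5 of 10 below 0. Of the 8 complex II genes, 3 were below 0 both with and without the 2 arrays, and the median was 0.033 with them and 0.050 without them. The catalytic flavoprotein Sdha had -0.18 ± 0.072 (adjusted p = 0.57, limma), while the assembly factor Sdhaf4 had 0.18 ± 0.091. Of the 9 complex III genes, 4 were below 0, among them Uqcrc2, a core subunit (-0.21 ± 0.072), and Uqcrfs1, the Rieske iron-sulphur protein (-0.17 ± 0.068). The complex III median was 0.0034, and without HGI 9 and HGI 10 it turned to -0.019 with 6 of 9 below 0, while Uqcrc2 and Uqcrfs1 were then at -0.21 and -0.14. Of 10 coenzyme Q synthesis genes measured of 13 listed, 5 were below 0, with Coq8b at 0.10 and Coq9 at -0.11. Without the 2 arrays 5 were again below 0, and these genes were at 0.058 and -0.080. None of these passed the adjusted p.

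Among 8 regulators of mitochondrial genes, 6 had a difference below 0, with a median of -0.12 and none past the adjusted p. Without HGI 9 and HGI 10, 6 were again below 0 and the median was -0.11. Among the 6 was Pprc1 at -0.29 ± 0.32, or -0.30 without the 2 arrays. Its log2 ratio reached 2.96 in LGI mice, while it lay between -0.15 and 0.040 in HGI mice. The mean of the 8 regulators in LGI 4 was 0.50, the highest of its diet. Ppargc1b, which encodes the coactivator PGC-1beta, had -0.31 ± 0.095 (adjusted p = 0.52, limma) and -0.33 without HGI 9 and HGI 10. Its log2 ratio lay between -0.43 and 0.032 in HGI mice, against -0.27 to 0.49 in LGI mice. Esrra, the nuclear receptor ERR-alpha that pairs with it, had -0.17 ± 0.096, and Nrf1 itself had -0.14 ± 0.078. The 2 regulators above 0 were Hif1a at 0.20 ± 0.11 and Gabpa at 0.12 ± 0.073. Without HGI 9 and HGI 10 these were at 0.24 and 0.11.

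Cell type markers differed in value between the diets as well, with none past the adjusted p. Of the 10 adipocyte markers, 8 had a difference below 0 and the median was -0.16 (-0.14 without HGI 9 and HGI 10), with Cebpa at -0.24 and Plin1 at -0.22 (-0.15 and -0.14 without them). The 2 above 0 were Lep at 0.37, the largest difference of the list, and Cidec at 0.049 (0.56 and 0.15 without them). The mean of the 10 markers lay between -0.33 and -0.0057 in HGI mice, against -0.30 to 0.12 in LGI mice. LGI 9, the lowest of its diet for the core genes, had an adipocyte mean of -0.30 and a median over the 10 markers of -0.29. LGI 2, the highest mouse for the core genes, had a mean of -0.23 and a median of 0.025, with the adipokine Lep at -2.49, its lowest value of all 17 mice. LGI 4, next highest for the core genes, had an adipocyte mean of -0.015 and a median of -0.10. LGI 1 had the highest adipocyte mean, at 0.12, and a core mean of 0.050. Of the 8 macrophage markers, 7 were above 0 with a median of 0.15, led by Gpnmb at 0.69 and Mpeg1 at 0.39, and their mean lay between -0.18 and 0.43 in HGI mice, against -0.25 to 0.044 in LGI mice. Without HGI 9 and HGI 10, 6 of 8 macrophage markers were above 0 with a median of 0.20. All 5 mesothelium markers were below 0 with and without the 2 arrays (median -0.22 with them and -0.18 without them), with Lrrn4 at -0.45 and Upk3b at -0.38. Their mean lay between -0.42 and 0.43 in HGI mice, against -0.096 to 0.58 in LGI mice. The part of these cell types in the core values was not tested.

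Of the remaining lists, 4 of 5 endothelium markers were below 0 (median -0.071), with Kdr at -0.27 and Emcn at -0.12. HGI 9 and HGI 10 had endothelium means of -0.30 and -0.24, and without them 2 of 5 markers were below 0, the median turned to 0.027, and Kdr and Emcn were at -0.21 and -0.036. The 3 brown fat markers measured of 5 included Cidea at -0.17 and Cox8b at 0.059, or -0.085 and 0.19 without the 2 arrays. Of 6 epididymis and sperm genes measured of 9, 2 had a difference below 0, Prm1 at -0.48 and Prm2 at -0.22, or -0.45 and -0.22 without the 2 arrays. The log2 ratios of Lcn5, Lcn8 and Defb20 were far below the pool in every mouse. They lay between -5.26 and -3.46 in HGI mice, against -5.12 to -3.46 in LGI mice. Those of Prm1, Prm2 and Tnp1 lay between -1.12 and 0.070 in HGI mice, against -0.76 to 0.63 in LGI mice. The 6 seminal vesicle genes measured of 7 were all above 0 with a median of 1.20, with Svs3a at 1.56 and Svs6 at 1.07, and the median was -0.011 without HGI 9 and HGI 10. Only Acta1 of 5 skeletal muscle markers was measured. Its difference was 0.63, with HGI 9 and HGI 10 at 1.39 and 1.04, and 0.33 without them. Of 5 motile cilia markers Tekt1 was at -0.078 and Dnah5 at 0.0023, or 0.017 and -0.035 without the 2 arrays.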

How the data were processed

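The deposited scanner files hold intensities of each spot in Cy5 (1 mouse) and Cy3 (the pool), written by Agilent Feature Extraction. Its version is 9.1.3.1 per the file headers and 9.5.1.1 per the submitters' processing notes. The scanner's processed intensities are background-subtracted and dye-normalized, per the file headers. The authors also deposited log2 values, whose normalization is not given in the sources used here, and these served as an alternative. The design text speaks of 19 arrays, of which the authors excluded 2 for quality. The 17 others were analysed (9 HGI, 8 LGI).

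In limma 3.58.1 (R 4.3.3, data.table version 1.17.8), normexp with offset 50 corrected the background, and log2 Cy5/Cy3 was normalized by loess within arrays, with control spots and outlier spots (4 to 43 an array) at weight 0. Every mouse was in Cy5, so a shared dye effect cancels between the diets. The number of arrays limits the precision. Of 41174 probes, 25514 were well above background in Cy5 on at least 8 arrays, and the brightest for each gene gave 18133 genes. On single arrays 54.2% to 66.7% of gene spots passed this flag. A RefSeq table (GRCm38.p6) named 23374 probes through their accession, 6733 through their symbol and 2919 through a former symbol; the names in the files were kept for 8148.

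The diets were compared by lmFit and eBayes over all 17 arrays without covariates, and p was adjusted by Benjamini-Hochberg over all genes. The fit was also run on simulated data, with values drawn independently for each gene and no arrays that stood apart. How often differences of the size seen here would be found is not reported from it. Plots used Python 3.11.15 and matplotlib 3.10.9. Members, classes, gene lists and marker lists were chosen with earlier results of these data known. The named genes were every core subunit (1 of them counts in the class values and is not reported by name here), the 5 accessory genes of smallest unadjusted p and the 2 of largest difference against the class median, the 2 assembly factors of smallest p and the 1 most opposite, Ndufa4, and the 2 genes of smallest p in each list. Other genes are named only to account for the group, by position or role, or where HGI 9 and HGI 10, other arrays or the pool stood apart in them. The 17 arrays were scanned in 1 session, 1 array to a slide, and were split by scan order into the first 8 (4 HGI, 4 LGI) and the later 9 (5 HGI, 4 LGI). Alternatives covered background, normalization, channel, filters, probes, array weights, scan order, pairing and left-out arrays.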

Additional observations from a re-analysis of the deposited data

Results flagged for a closer look

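The 16 named Nduf genes, the class means and the core minus accessory mean were examined in each diet for a mouse whose gap to the nearest other was wide for the range of its diet (Dixon's criterion). Of 42 groups of values examined, 1 held such a mouse, and chance flags about 1 group in 20. The log2 ratio of Ndufv2, a core subunit with an iron-sulphur cluster, was 0.13 in LGI 2, while the other LGI mice lay between -0.081 and 0.019 with a median of -0.035. LGI 2 also had the highest mean of the core genes.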

How the results depend on the processing

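Under 34 alternatives, 17 of which left out 1 mouse, 0 of the 44 complex I genes passed the adjusted p by limma. Genes passing over the whole array numbered 1 with Cy5 alone, 1 with array weights and 0 to 3 when 1 mouse was left out (3 without LGI 7). The core median stayed below 0, between -0.15 and -0.075, and 5 or 6 of 7 core genes were below 0 in all 34. With median centring, 13 of 44 genes, 5 of 29 accessory genes (median 0.039) and 3 of 7 assembly factors were below 0. Assembly factors below 0 numbered 3 in the first 8 arrays scanned and 3 to 6 when 1 mouse was left out, and their median was -0.070 with Cy5 alone. Single genes reversed as follows, and the cause was not tested. Ndufa1 was -0.0086 without HGI 9, HGI 10 and LGI 9, an alternative chosen after seeing the data. Ndufaf5 was 0.0063 without HGI 9 and HGI 10, Ndufs8 -0.11 in the later 9 arrays, and Ndufv2 -0.0075 with Cy5 alone and -0.040 in the authors' deposited values. Ndufa4 was 0.0093 by processed signals, 0.0018 in the authors' deposited values, 0.015 in the later 9 arrays, 0.065 with median centring and -0.029 to 0.024 when 1 mouse was left out. The replicate numbers showed no clear pairing of the mice, though such correlations cannot exclude one: 3 of 7 shared numbers had r over 0.1, and 2 of 7 LGI arrays correlated best with their own number. With the replicate block over those 14 arrays, as in the same arrays with no replicate block, the core median was -0.12, 27 of 44 genes were below 0, Ndufa4 was 0.025 and Ndufaf5 0.010, and 0 genes passed. The slide as a block was not run, since each slide held 1 array.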
